A study of Mus musculus with 24 samples.

Results

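Abcb1a, Dpp4, Ceacam1, Btnl1 and Btnl2 are 5 genes whose products sit on the surface of mature enterocytes, the absorptive cells of the intestinal villus. They were chosen by name, all 5 were found among the 547 genes measured, and each was followed across the Control, PAT1 and PAT3 mice. The samples were terminal ileum, the last stretch of the small intestine, from 24 C57BL/6 mice at week 7 of life, with no engineered allele in any group. Groups are those of the sample labels. A legend of the study divides the treated mice differently between PAT1 and PAT3, so that a mouse may belong to the other tylosin group, which bears on every PAT1 and PAT3 value. Control mice (n = 7, 4 male and 3 female) drank water with no antibiotic. PAT1 mice (n = 7, 4 male and 3 female) were given a single course of the macrolide tylosin as nursing pups through the milk of the dam, and PAT3 mice (n = 10, 4 male and 6 female) were given that course and a pair of later ones, 3 courses in all. Expression was measured with the NanoString nCounter mouse immunology panel, which counts colour-coded probes hybridised to each transcript with no amplification.

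Enterocytes mature as they move from the crypt to the villus tip, and on the way they acquire the enzymes, pumps and adhesion molecules of the brush border and the lateral membrane. Abcb1a encodes P-glycoprotein, an ATP-driven pump that returns drugs and other foreign compounds to the lumen. Dpp4 encodes a brush border peptidase that removes dipeptides from peptides, incretin hormones and chemokines. Ceacam1 encodes an adhesion molecule of the immunoglobulin superfamily whose long tail recruits inhibitory phosphatases. Btnl1 and Btnl2 encode butyrophilin-like proteins: Btnl1 is displayed by enterocytes to gamma delta intraepithelial T cells and takes part in their maintenance, and Btnl2 is known as an inhibitor of T cell activation. Several of these products also occur outside the epithelium, Dpp4 on activated T cells and Ceacam1 on leukocytes and endothelium, so that levels in whole tissue are not those of enterocytes alone.

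Btnl1 and Btnl2 lie next to each other on chromosome 17, where Btnl1 was the next protein-coding gene after Btnl2 in the RefSeq annotation of assembly GRCm38.p6. Because these neighbours varied together more closely between mice than any other pair of the 5 genes, a stretch of 120 bases upstream of each is shown, with one of Ceacam1, the gene that fell. Each stretch stops before the outermost start of the gene in the annotation, and so it runs, counted from the annotated start of the promoter window, from -129 to -10 in Btnl1, from -153 to -34 in Btnl2 and from -142 to -23 in Ceacam1. The stretches lie at chr17:34377003-34377122 (plus strand), chr17:34354669-34354788 (plus strand) and chr7:25477648-25477767 (minus strand), each read 5′ to 3′ on the strand of the gene, and capitals mark the letters CAAAGTC, a match to a common form of the HNF4 motif, and AGATAA, a match to a GATA motif.
Btnl1: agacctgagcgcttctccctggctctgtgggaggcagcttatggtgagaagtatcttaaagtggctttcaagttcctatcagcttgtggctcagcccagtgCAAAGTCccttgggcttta
Btnl2: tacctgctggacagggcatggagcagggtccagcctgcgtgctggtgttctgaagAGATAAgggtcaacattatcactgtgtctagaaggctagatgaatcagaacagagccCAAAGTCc
Ceacam1: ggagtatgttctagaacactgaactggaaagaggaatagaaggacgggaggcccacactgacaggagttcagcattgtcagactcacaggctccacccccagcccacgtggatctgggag
In the 250 bases before the same annotated starts, read on both strands, CAAAGTC occurred in Btnl1 (first base at -28) and Btnl2 (first base at -41) and in none of the other 3 genes. It occurred in 3.84% of all 32851 mouse promoter windows of this length, and in 5.66% of the 495 windows of genes measured here. AGATAA occurred in Btnl2 (first base at -98) and Dpp4 (first base at -32), against 9.99% of all windows and 9.09% of those of measured genes. The Dpp4 match lies past the outermost annotated start of that gene, before which a stretch cut as above ends at -85. The letters TTTAT, found in Cdx motifs, occurred in Abcb1a, Dpp4 and Btnl1, against 37.3% of all windows and 36.4% of those of measured genes. GTTAAT, letters of the HNF1 motif, occurred in none of the 5, against 6.43% and 5.66%. Read on both strands, TTTAT and AGATAA can overlap at a site, but in Dpp4, which held both, their first bases lay at -226 and -32. A match describes the sequence only.

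Total counts per mouse ranged from 171671 (PAT1 replicate 1) to 782392 (PAT1 replicate 7), and the counting error at the median count of a group was at most 4.69%, reached for Btnl2 in Control. The median log2 level over all genes was lower than in Control by -0.14 in PAT1 and -0.19 in PAT3. Some markers of other cell types differed from Control. Of 11 T cell markers, 3 fell in PAT1 and 9 fell in PAT3. Of 9 myeloid markers, 2 and 3 fell, and no marker of either list was higher. Over all genes, 11.2% fell in PAT1 and 17.9% in PAT3 (limma, adjusted p under 0.05). Of 10 B cell markers 0 passed in PAT1 and 1 fell in PAT3. Summed B cell marker levels (10 genes, log2) spanned 8.36 to 10.04 in Control, 8.05 to 12.43 in PAT1 and 7.87 to 9.27 in PAT3. Of 8 endothelial and stromal markers none passed in PAT1, and 4 rose in PAT3 (among them Ncam1 by 0.81 and Pdgfrb by 0.73), with a median of 0.63. In PAT3 13.9% of all genes rose. No marker of these lists was listed at 0. In bulk tissue, fewer cells of a type and less RNA per cell cannot be told apart. Litters were assigned to a group whole and mice were housed by sex and group, so litter, cage and treatment cannot be told apart either, and the tests treat mice as independent.

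**Figure D1:**
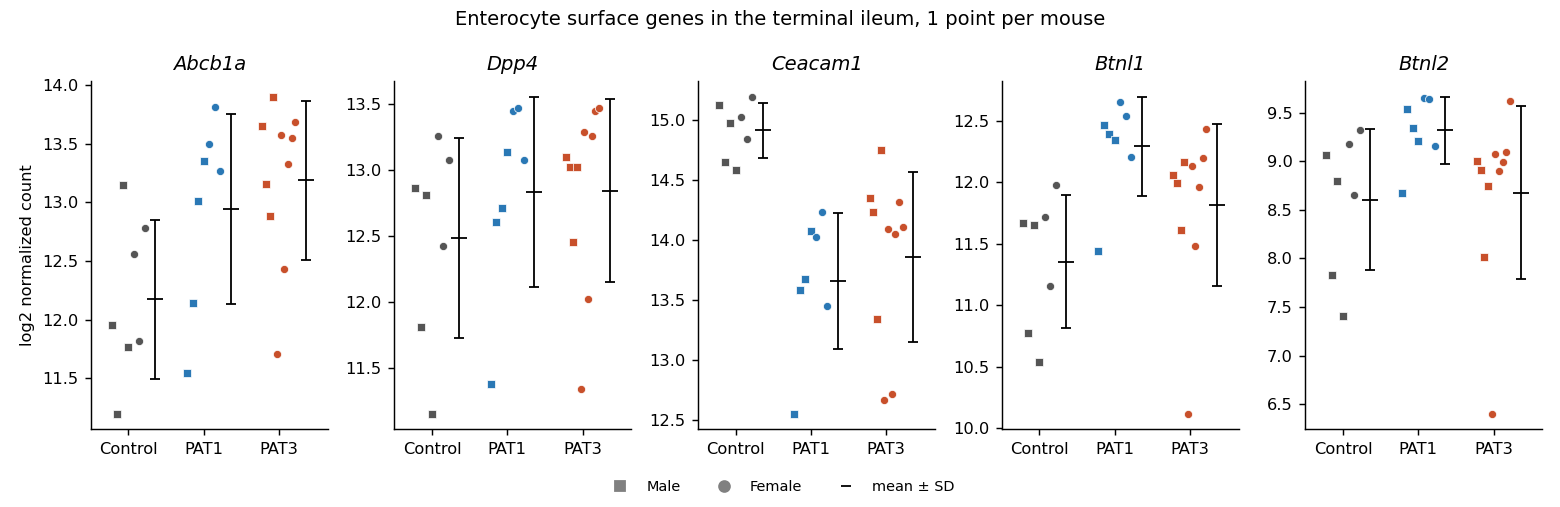
Log2 normalised counts of the 5 genes in each mouse (vertical axis) by group (horizontal axis), with squares for males, circles for females and bars for the mean ± SD (n = 7, 7 and 10). Ceacam1 lies between 14.59 and 15.20 in all Control mice and at or below 14.24 in all PAT1 mice, while Abcb1a and Btnl1 lie higher in most treated mice than in most Control mice.

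Ceacam1 was lower in both tylosin groups than in Control. In Control its log2 level was at lowest 14.59, at median 14.98 and at highest 15.20. PAT1 mice had 12.56, 13.68 and 14.24, and PAT3 mice 12.67, 14.10 and 14.75. Every PAT1 mouse lay below every Control mouse, and among PAT3 mice only replicate 4 reached into the Control range. Group means were 14.92 ± 0.23 (SD, n = 7) in Control, 13.66 ± 0.56 (n = 7) in PAT1 and 13.86 ± 0.71 (n = 10) in PAT3, so treated mice also spread more widely than Control mice. In the limma fit over all genes, Ceacam1 fell by 1.26 on the log2 scale in PAT1 (SE 0.29, 95% interval -1.85 to -0.66, adjusted p = 0.00287), which is 2.39-fold. In PAT3 it fell by 1.05 (SE 0.27, 95% interval -1.60 to -0.50, adjusted p = 0.00377), or 2.07-fold, and it lay below the Control mean in 7 of 7 and 10 of 10 mice.

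As a share of all counts, Ceacam1 took 5.77% ± 0.308 (SD, n = 7) of each Control library, 2.58% ± 0.695 of PAT1 libraries and 3.19% ± 1.23 of PAT3 libraries. By level it ranked between 4 and 5 among the 547 genes in Control mice and between 4 and 10 in both tylosin groups. Leaving out any 1 of the 24 mice kept both differences past the threshold. Quantile normalisation, which gives every mouse the same distribution of values, ended both calls, with log2 differences of -0.46 (adjusted p = 0.158) in PAT1 and -0.29 (adjusted p = 0.308) in PAT3. With females alone the PAT1 difference was -1.11 (adjusted p = 0.196), and with males alone the PAT3 difference was -0.67 (adjusted p = 0.153).

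Abcb1a was higher than in Control after 3 courses. Its log2 level in Control was at lowest 11.20, at median 11.95 and at highest 13.15. PAT1 mice had 11.54, 13.27 and 13.81, and PAT3 mice 11.71, 13.43 and 13.90. The groups overlapped, since Control replicate 3 reached 13.15 and the lowest mouse of each tylosin group lay inside the Control range. Abcb1a rose by 1.01 in PAT3 (SE 0.33, 95% interval 0.33 to 1.70, adjusted p = 0.0217, above the Control mean in 9 of 10 mice), a 2.02-fold difference. In PAT1 the difference was 0.77 (SE 0.36, 95% interval 0.03 to 1.51, adjusted p = 0.152, above the Control mean in 5 of 7 mice). The PAT3 call was lost without Control replicate 2 (0.85, adjusted p = 0.0627) and under the aov and TukeyHSD test of the study's methods (adjusted p = 0.0892). Without PAT1 replicate 1, the mouse with the fewest counts, the PAT1 difference was 1.01 (adjusted p = 0.0360).

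Btnl1 was higher than in Control after the single course. Control mice had at lowest 10.54, at median 11.65 and at highest 11.97 on the log2 scale. PAT1 mice had 11.44, 12.39 and 12.65, and PAT3 mice 10.12, 12.03 and 12.43. Apart from replicate 1, all PAT1 mice lay above the highest Control mouse, whereas PAT3 mice spanned the Control range and PAT3 replicate 5 lay below it. Btnl1 rose by 0.94 in PAT1 (SE 0.29, 95% interval 0.35 to 1.53, adjusted p = 0.0194, above the Control mean in 7 of 7 mice), a 1.91-fold difference. In PAT3 the difference was 0.46 (SE 0.26, 95% interval -0.08 to 1.0, adjusted p = 0.184, 9 of 10 mice). The PAT1 call was lost without Control replicate 2 (0.84, adjusted p = 0.0509), without Control replicate 4 (0.80, adjusted p = 0.0557) and under the test of the study's methods (adjusted p = 0.0827), and the PAT3 difference passed the threshold without PAT3 replicate 5 (0.65, adjusted p = 0.0167).

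Btnl2, the gene next to Btnl1, did not pass the threshold in any comparison. Its log2 level was at lowest 7.41, at median 8.79 and at highest 9.32 in Control. PAT1 mice had 8.68, 9.34 and 9.65, and PAT3 mice 6.40, 8.95 and 9.62. PAT1 mice were the least spread, at 9.32 ± 0.35 (SD, n = 7) against 8.61 ± 0.72 (n = 7) in Control and 8.68 ± 0.89 (n = 10) in PAT3. All 7 PAT1 mice lay above the Control mean, with a difference of 0.71 (95% interval -0.04 to 1.46, adjusted p = 0.194), and the PAT3 difference was 0.07 (95% interval -0.62 to 0.76, adjusted p = 0.884).

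Dpp4 differed least from Control in the comparison with PAT1. Control mice had at lowest 11.16, at median 12.81 and at highest 13.26, PAT1 mice 11.38, 13.08 and 13.47, and PAT3 mice 11.35, 13.06 and 13.47. The 3 groups covered nearly the same range. The differences from Control were 0.35 in PAT1 (95% interval -0.40 to 1.09, adjusted p = 0.557) and 0.36 in PAT3 (95% interval -0.33 to 1.04, adjusted p = 0.430), so an increase of 1 on the log2 scale lies inside both intervals. Without Control replicate 4, the lowest Control mouse, they were 0.13 and 0.14, and without PAT1 replicate 1 the PAT1 difference was 0.59 (adjusted p = 0.236).

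Of the 5 genes, 1 passed the threshold as higher and 1 as lower in PAT1, where 18.5% of all genes tested passed it (7.31% higher and 11.2% lower). In PAT3 the counts were again 1 higher and 1 lower, where 31.8% of all genes passed (13.9% higher and 17.9% lower). Groups that did not overlap were seen for 1 of the 5 genes in PAT1 and none in PAT3, against 6.22% and 9.32% of all genes. With 5 genes these counts do not stand apart from the shares of the panel, and both comparisons use the same Control mice. The median difference of the 5 genes was 0.71 in PAT1 and 0.36 in PAT3, beside 0.01 and 0.03 over all genes tested. Across the 3 groups together, the moderated F-test passed for Ceacam1 (adjusted p = 0.00272), Btnl1 (adjusted p = 0.0368) and Abcb1a (adjusted p = 0.0491), where 34.6% of all genes passed.

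**Figure D2:**
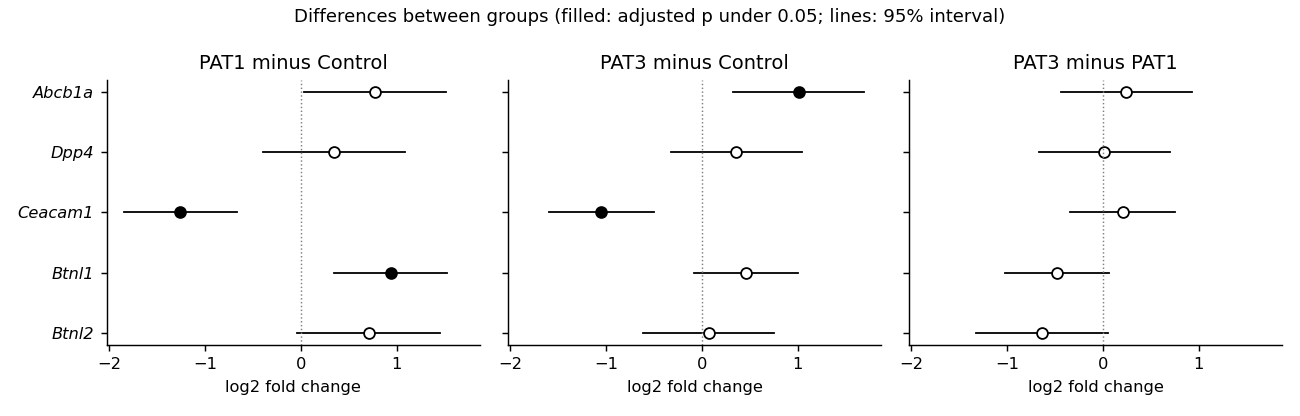
Differences between groups on the log2 scale (horizontal axis) for each gene (vertical axis), with 95% intervals from the limma fit as lines and filled points where the adjusted p is under 0.05. Ceacam1 lies left of 0 in both comparisons with Control, at -1.26 and -1.05, and no interval in the comparison of PAT3 with PAT1 excludes 0.

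PAT3 and PAT1 mice were compared directly to ask what the later courses added. Those courses were also given closer to sampling, so the number of courses and the time since the last cannot be told apart. None of the 5 genes passed the threshold, where 4.2% of all genes did, 1.46% as higher and 2.74% as lower in PAT3 (23 genes by limma, and 156 at an unadjusted p under 0.05). None of the 5 passed under the test of the study's methods either. The butyrophilin-like genes had the widest differences, at -0.48 for Btnl1 (95% interval -1.02 to 0.06, adjusted p = 0.238) and -0.64 for Btnl2 (95% interval -1.33 to 0.05, adjusted p = 0.211), each below the PAT1 mean in 9 of 10 PAT3 mice. For Abcb1a the difference was 0.24 (95% interval -0.44 to 0.92), for Ceacam1 0.20 (-0.34 to 0.75) and for Dpp4 0.01 (-0.67 to 0.69). Each interval includes differences of more than 0.5 in at least 1 direction, so the comparison does not show that the groups are alike. Without PAT1 replicate 1 the differences of Abcb1a and Ceacam1 were 0.0073 and 0.020, and without PAT3 replicate 5 those of Btnl1 and Btnl2 were -0.29 and -0.39.

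Between mice of the same group the 5 genes varied together. Control replicates 2 and 4, PAT1 replicate 1 and PAT3 replicates 3 and 5 were below their group mean for all 5 genes, and Control replicate 6 and PAT3 replicate 7 for all but Btnl2. Over the 24 mice, with each value taken as its deviation from the group mean, Pearson's r between pairs ran from 0.65 (Ceacam1 and Btnl2) to 0.94 (Btnl1 and Btnl2, Spearman's rho 0.89), with a median of 0.83 over the 10 pairs. The median over all 77028 pairs of the 393 genes with a mean log2 level of at least 5 was 0.01, and the 90th percentile was 0.60. These correlations are descriptions with no test, and the values of a mouse share 1 tissue piece, 1 RNA extract and 1 size factor. Leaving out the 2 mice farthest from the median gave a median of 0.74.

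With the group means left in, r also carries the group differences given above, and so Ceacam1 parted from the other 4 genes. Its r with Abcb1a was then 0.15, with Dpp4 0.42, with Btnl1 0.11 and with Btnl2 0.24, whereas Btnl1 and Btnl2 kept 0.92. Within groups alone, Ceacam1 and Btnl1 had r = 0.98 in Control, 0.92 in PAT1 and 0.82 in PAT3.

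**Figure D3:**
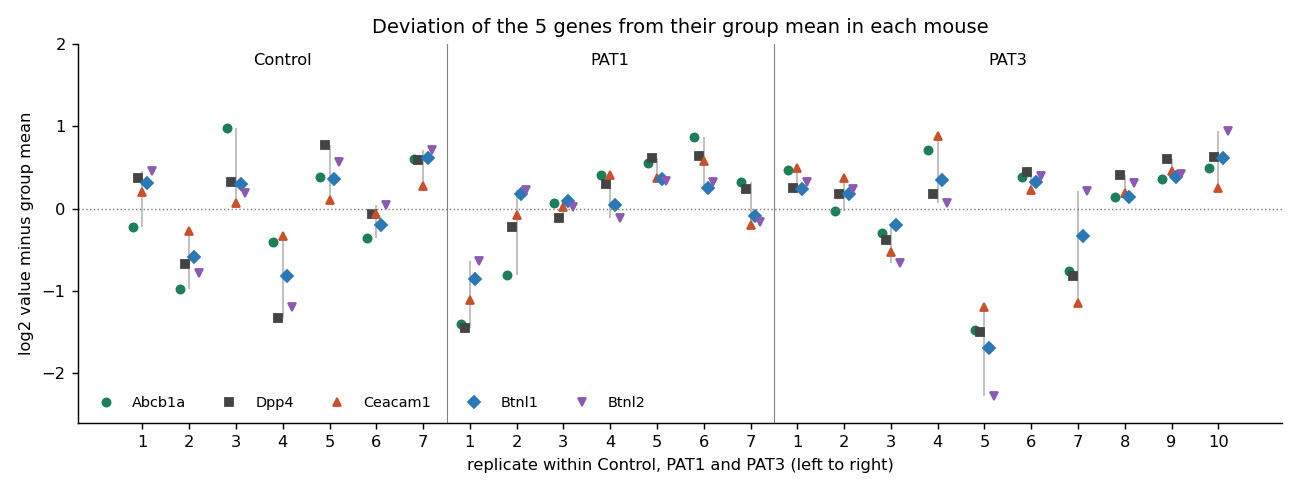
Deviation of the log2 level from the group mean (vertical axis) for the 5 genes in each of the 24 mice (horizontal axis), with a grey line from the lowest to the highest gene of a mouse. All 5 markers lie below 0 in Control replicates 2 and 4, PAT1 replicate 1 and PAT3 replicates 3 and 5.

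Since the low mice were low for most of the 5 genes, each gene was also expressed relative to Dpp4 of the same mouse. Dpp4 was picked for this after its values were seen, as a member of the 5 that passed no test. The log2 ratio of Ceacam1 to Dpp4 was at lowest 1.77, at median 2.26 and at highest 3.43 in Control, 0.38, 0.94 and 1.18 in PAT1, and 0.65, 0.88 and 1.73 in PAT3. Neither tylosin group overlapped Control, which was the case for 1.28% of the 546 genes in each comparison. Relative to Dpp4, Ceacam1 fell by 1.60 in PAT1 (SE 0.28, limma adjusted p = 0.000718) and by 1.41 in PAT3 (SE 0.26, limma adjusted p = 0.000495), where 3.85% and 9.89% of genes passed (3.48% and 9.71% as lower). Abcb1a relative to Dpp4 differed by 0.42 in PAT1 (adjusted p = 0.569) and 0.66 in PAT3 (adjusted p = 0.104), and Btnl1 by 0.59 (adjusted p = 0.259) and 0.10 (adjusted p = 0.895). The ratio shows unequal change of a pair of genes and not which of them changed.

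**Figure D4:**
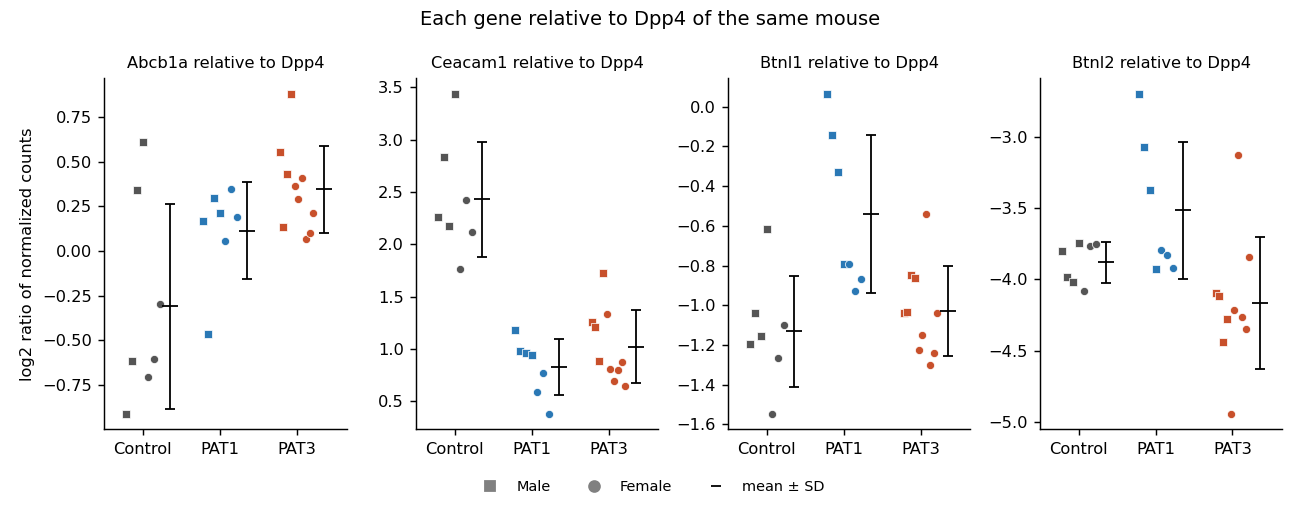
Log2 ratio of each gene to Dpp4 of the same mouse (vertical axis) by group (horizontal axis), with squares for males, circles for females and bars for the mean ± SD. The Ceacam1 ratio is at least 1.77 in all Control mice and at most 1.73 in all treated mice, while the ratios of the other 3 genes overlap between groups.

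Of the 388 other genes compared, 114 had r above 0.5 with the mean standardised deviation of the 5 genes and 67 had r below -0.5. The most alike were Phlpp2 (r = 0.98), a phosphatase of the Akt pathway, Prkcd (0.98), a protein kinase C, Jak2 (0.96), a cytokine receptor kinase, Chuk (0.96) and Tbk1 (0.96), kinases of the NF-kappaB and interferon pathways, and Src (0.94), a membrane-bound tyrosine kinase. At the other end stood C1qa (-0.87) and C1qb (-0.84), complement genes of tissue macrophages, Csf1r (-0.85), the receptor for macrophage colony-stimulating factor, and Il10ra (-0.84), a chain of the interleukin-10 receptor. Re-centring each mouse on the median of all genes weakened these to -0.54 (C1qa), -0.57 (C1qb), -0.60 (Csf1r) and -0.72 (Il10ra), whereas the 6 most alike genes ran from 0.95 to 0.99. The genes nearest to a single member were Abcb10 for Dpp4 (r = 0.98), Ctnnb1 for Ceacam1 (0.93), Npc1 for Abcb1a (0.93) and Gm10499 for both Btnl1 (0.96) and Btnl2 (0.99). Gm10499 and H2-K1, another of the 3 nearest to Btnl2 (0.95), are also on chromosome 17.

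**Figure D5:**
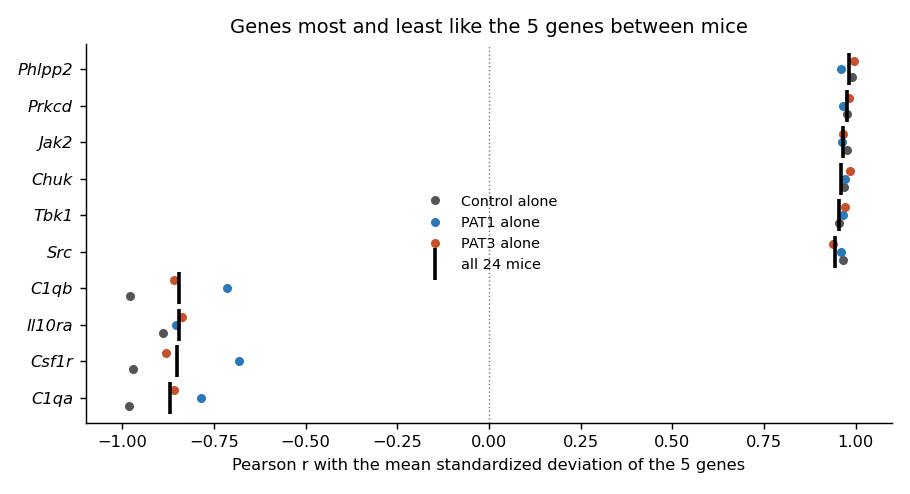
Pearson's r (horizontal axis) of the 6 most alike and 4 least alike genes (vertical axis) with the mean standardised deviation of the 5 genes, with black bars for all 24 mice and coloured points for each group alone. The 6 upper genes are above 0.9 in each group, and C1qa, C1qb, Csf1r and Il10ra are below -0.6 in each group.

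The mean myeloid marker level had r = -0.72 (rho -0.64, n = 24) with the mean standardised deviation of the 5 genes within groups, and the 15 other epithelial genes had r = 0.80 (rho 0.67). The myeloid markers did not vary alike. Csf1r had r = -0.85, Itgax -0.64, Cx3cr1 -0.64 and Msr1 -0.51, whereas Itgam had 0.29 and Cd14 0.20. Marco, S100a8 and S100a9, also in the mean, lay below a mean log2 level of 5. For B cell markers r was -0.16, for T cell markers -0.27, for endothelial and stromal markers -0.04 and for the size factor 0.30. Summed myeloid levels (9 genes, log2) were 10.52 to 11.14 in Control, 10.19 to 10.61 in PAT1 and 10.41 to 10.82 in PAT3. With the myeloid mean as a covariate, chosen after these values were seen, Ceacam1 differed by -1.94 in PAT1 (limma adjusted p = 9.1e-05) and by -1.80 in PAT3 (adjusted p = 9.38e-05). Btnl1 then differed by 0.17 in PAT1 (adjusted p = 0.716) and Abcb1a by 0.0073 in PAT3 (adjusted p = 0.987), and both calls ended. The part of myeloid content in these differences was not tested.

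The label of the 5 genes was set against other epithelial genes, not all of which varied with them. Of the 13 with a mean log2 level of at least 5, 6 had r above 0.5 within groups, and r ran from -0.15 (Ccl20) to 0.90 (Cx3cl1) with a median of 0.40. The 6 were Cx3cl1, Cd55 (0.72), Ptger4 (0.66), Ccl25, Fcgrt (0.60) and Pigr. Whether their RNA came from the epithelium alone was not tested. Itln1, a goblet and Paneth cell lectin, had -0.01, Tslp 0.03, Tlr5 0.04 and Nox1 0.24 over all mice. These values join groups of opposite sign. Itln1 had 0.84 in Control, -0.16 in PAT1 and -0.60 in PAT3. In the same order Nox1 had -0.57, -0.12 and 0.72, Tslp -0.11, 0.82 and -0.40, and Tlr5 0.43, 0.28 and -0.64. Ccl25, a chemokine of small intestinal enterocytes, had r = 0.61 with the 5 genes over all mice but 0.21 in PAT1 alone, and Pigr, which transports secretory antibodies into the lumen, had 0.59. Epcam, Cdh1, Vil1 and Krt20, which define the epithelium more closely, were not analysed here. Of the 15 other epithelial genes, 1 was higher and 2 lower in PAT1, and 2 were higher and 3 lower in PAT3, with medians of 0.01 and -0.03. Over all genes, 7.31% passed as higher and 11.2% as lower in PAT1, and 13.9% and 17.9% in PAT3. Ccl25 rose by 1.13 in PAT1 (adjusted p = 0.000343) and 0.81 in PAT3 (adjusted p = 0.00154). Pigr fell by 1.32 (adjusted p = 0.00321) and 0.90 (adjusted p = 0.0166), with no overlap between Control and either tylosin group. Nox1, an epithelial NADPH oxidase, fell by 2.28 and 1.34, Il18, an epithelial cytokine, fell by 1.05 in PAT3, and Tlr5, the flagellin receptor, rose by 0.86 in PAT3.

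Among 5 other peptidases and ectoenzymes, 3 were higher in PAT1 and 2 in PAT3, and none was lower. As higher, 7.31% of all genes passed in PAT1 and 13.9% in PAT3. Ctsc, a member of this list that did not pass, is not a surface enzyme. Bst1, which acts on NAD, rose by 3.02 in PAT1 (adjusted p = 0.000356) and by 1.63 in PAT3 (adjusted p = 0.0155). Mme, the peptidase neprilysin, rose by 1.90 in PAT1 (adjusted p = 0.0153), and Nt5e, which makes adenosine, by 1.03 and 0.91. The median difference of the 5 was 1.03 in PAT1 and 0.91 in PAT3, and within groups Mme had r = 0.87 and Bst1 r = 0.71 with the enterocyte surface genes. Of the 3 other genes of the ABC family, that of Abcb1a, Tap1, a peptide transporter of antigen presentation, fell by 0.80 in PAT1 and by 1.24 in PAT3. The others, Abcb10 and Abcf1, did not pass, and Abcf1 is not a transporter.

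Dpp4 itself did not pass. Of 13 genes that encode its known substrates and partners, 2 were higher and 4 lower in PAT1, where 18.5% of all genes passed, and 4 were higher and 5 lower in PAT3, where 31.8% of all genes passed. The medians were 0.05 and -0.44, and the list as a whole was not tested. Cxcl9 fell by 1.34 and 1.95 and Ccl5 by 1.32 and 1.97, both chemokines that draw T cells, and Ccl22, a chemokine of dendritic cells, fell by 1.0 and 1.13. Cxcl11, of the same receptor as Cxcl9, rose by 1.20 and 1.25 from low counts in Control (median 30, range 14 to 46). Whether its protein was made was not tested. T cells bear the receptors of several of these chemokines, and their markers (11 genes, log2) summed to 9.95 to 10.22 in Control, 9.18 to 10.24 in PAT1 and 8.63 to 9.48 in PAT3. Their part in these differences was not tested.

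Of 7 genes that act with Ceacam1, 1 was higher and 2 lower in PAT1, and 1 was lower in PAT3. Over all genes, 18.5% passed in PAT1 and 31.8% in PAT3. Tlr2, a receptor for bacterial lipoproteins whose signalling Ceacam1 can restrain, fell by 1.18 in PAT1 (adjusted p = 0.000355) and 1.0 in PAT3 (adjusted p = 0.000334). Tlr4, the receptor for lipopolysaccharide, fell by 0.59 in PAT1, and Ptpn6, the phosphatase that binds the Ceacam1 tail, rose by 0.49 in PAT1.

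Of 7 partners and relatives of the butyrophilin-like genes, Cd274, which encodes the checkpoint ligand PD-L1, fell by 1.33 in PAT1 (adjusted p = 0.00044) and by 1.46 in PAT3 (adjusted p = 2.25e-05), and Icosl, a costimulatory ligand, rose by 0.55 in both, while the other 5 did not pass. In PAT1 18.5% of all genes passed, and in PAT3 31.8% did. Intraepithelial lymphocytes are the cells that meet Btnl1 on the enterocyte. Of 15 genes listed for them, some of which are also T cell markers, 9 were lower and 1 higher in PAT1. In PAT3, 11 were lower and 1 higher, and the medians were -0.62 in PAT1 and -1.06 in PAT3. The shares over all genes were 11.2% lower and 7.31% higher in PAT1, and 17.9% and 13.9% in PAT3. Gzmb and Gzma, the granzymes of cytotoxic cells, fell by 1.62 and 1.52 in PAT1 and by 2.33 and 2.52 in PAT3, and Cd7 fell by 1.12 and 1.80. The 1 higher gene was in both comparisons Il15, the cytokine that sustains these lymphocytes rather than a marker of them. It rose by 1.21 in PAT1 and 0.96 in PAT3. The mean level of the list, Il15 included, had r = 0.37 (rho 0.23, n = 24) with the 5 enterocyte surface genes within groups. Single groups differed in sign. Gzmb had r = 0.85 in Control, -0.17 in PAT1 and 0.69 in PAT3, and Cd7 had 0.89, -0.39 and 0.57. Xcl1, also in the list, had -0.59, -0.62 and 0.22.

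No gene of the 5 passed the threshold for sex, which 0.366% of all genes did (2 genes by limma, and 64 at an unadjusted p under 0.05). Female minus male, averaged over groups, was 0.44 for Dpp4 (adjusted p = 0.614), 0.32 for Btnl2, 0.26 for Abcb1a, 0.13 for Btnl1 and -0.03 for Ceacam1. In PAT1 the Abcb1a level was 13.53 ± 0.28 (SD, n = 3) in females and 12.51 ± 0.82 (n = 4) in males, and in PAT3 it was 13.04 ± 0.80 (n = 6) and 13.40 ± 0.46 (n = 4). The effect of treatment did not differ between the sexes at the threshold for any of the 5, with adjusted p from 0.420 (Abcb1a) to 0.756 (Btnl2), and 0.183% of all genes passed that test.

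Abcb1b lies next to Abcb1a and Ceacam2 next to Ceacam1 in the annotation, and both are close paralogs. The probe sequences were not used here, and whether a probe also binds the paralog was not tested.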

How the data were processed

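Terminal ileum of 24 mice was measured with the nCounter mouse immunology panel. Per the labels and the study's methods, the authors normalised the counts with DESeq2 and deposited log2 values of 547 genes, where 2 raised to a value was a whole multiple of 1 step per sample (tolerance 0.01 counts), which gave back the counts and totals. Counts of 0 were listed as 0, in 19 of 13128 values, none of them in the 5 genes. Whether background was subtracted is not given in the sources used here. Groups and sex came from the labels. The 5 genes and the gene lists were chosen with earlier results of these data known. The deposited log2 values were tested with limma (version 3.58.1, R version 4.3.3) in 1 fit over all mice, with Benjamini-Hochberg adjustment over all 547 genes and a threshold of 0.05. The fit was tested on simulated data. Genes of the lists were counted, and up to 4 per list and comparison, those past the threshold with the largest differences, could be named. The genes most alike were the 6 highest and 4 lowest by r among genes with a mean log2 level of at least 5, and the 3 highest for each member. No pair of samples agreed within sampling noise (lowest chi-square per degree of freedom 4.00 over 276 pairs). Promoter windows came from RefSeq (GRCm38.p6), where all 5 genes matched. Replicate numbers follow sample order and pair no mice. Per the study's methods whole litters were assigned to a group, so mice of a group can share a litter. Some Control and some tylosin-treated mice must, since the study gives fewer dams for each than mice. Which mice do is not given in the sources used here. The alternatives were the study's aov and TukeyHSD test, voom on the recovered counts, other scalings and filters, covariates, each sex alone and each mouse left out.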

Additional observations from a re-analysis of the deposited data

Results flagged for a closer look

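In 4 of 15 combinations of gene and group, the lowest mouse lay far from the rest of its group by Dixon's test at the 95% level, in all 4 of them on the low side. PAT1 replicate 1 had a Dpp4 log2 level of 11.38, against 12.61 in the next mouse, and a Btnl1 log2 level of 11.44, against 12.21. This mouse also had the fewest counts. PAT3 replicate 5 had a Btnl1 log2 level of 10.12, against 11.48 in the next mouse, and a Btnl2 log2 level of 6.40, against 8.02. The 5 genes vary together, so these values are not independent, and chance alone flags about 5% of groups at this level.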

How the results depend on the processing

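No paired analysis was run, since each mouse was in a single group and the labels pair no mice. In the comparisons with Control, the direction of Ceacam1 held under all alternatives run. Under the aov and TukeyHSD test of the study's methods, 1 of the 5 genes passed in PAT1, 1 in PAT3 and 1 across the 3 groups, and Btnl1 in PAT1 (0.94, adjusted p = 0.0827) and Abcb1a in PAT3 (1.01, adjusted p = 0.0892) did not pass. Under quantile normalisation 1 passed in each comparison with Control, and Ceacam1 gave -0.46 and -0.29. With the size factor as a covariate, Abcb1a passed in PAT1 (1.09), and in PAT3 against PAT1 it gave -0.0079 and Dpp4 -0.19. With sex as a covariate Dpp4 gave -0.065 in PAT3 against PAT1, and with the B cell mean Ceacam1 gave -0.0036 and Dpp4 -0.072. With sample weights Abcb1a passed in PAT1 (0.86) and Btnl1 in PAT3 (0.54). In males alone 1 gene passed in PAT1 and 1 in PAT3, Btnl1 gave 1.0 in PAT1 (adjusted p = 0.0501) and Ceacam1 -0.67 in PAT3. In females alone 0 passed in PAT1, 1 in PAT3 and 0 across groups by limma, with Btnl1 0.85 and Ceacam1 -1.11 in PAT1, Abcb1a 0.66, Btnl2 -0.37 and Dpp4 -0.11 in PAT3, and Abcb1a -0.48, Ceacam1 -0.25 and Dpp4 -0.53 in PAT3 against PAT1, where fewer mice were tested. With the myeloid mean, added after seeing the data, 1 gene passed in PAT1, 1 in PAT3 and 1 across groups. Abcb1a then gave -0.15, Btnl1 0.17, Btnl2 -0.14 and Dpp4 -0.68 in PAT1, Abcb1a 0.0073, Btnl1 -0.38, Btnl2 -0.86 and Dpp4 -0.77 in PAT3, and Dpp4 -0.085 in PAT3 against PAT1. Relative to Dpp4, also added after seeing the data, Btnl1 gave 0.59 in PAT1, Abcb1a 0.66 and Btnl2 -0.29 in PAT3. For these changes the cause was not tested.

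Leaving out each mouse in turn gave 0.61 to 1.01 for Abcb1a and 0.80 to 1.08 for Btnl1 in PAT1, 0.85 to 1.18 for Abcb1a, 0.32 to 0.65 for Btnl1 and -0.13 to 0.32 for Btnl2 in PAT3, and -0.23 to 0.18 for Dpp4 in PAT3 against PAT1. The number of the 5 genes that passed ran from 1 to 3 in PAT1, in PAT3 and across groups. The mice whose absence ended or gave a call are Control replicates 2 and 4, PAT1 replicate 1 and PAT3 replicate 5. Female minus male in Ceacam1 gave 0.19 in Control, 0.44 in PAT1, 0.017 under quantile normalisation and -0.13 to 0.080 with each mouse left out. In PAT3 alone female minus male was -0.36 for Abcb1a, -0.10 for Dpp4 and -0.23 for Btnl1. The median correlation of the 10 pairs was 0.68 with group means kept, 0.73 under quantile normalisation, 0.74 without the 2 farthest mice, 0.94 in Control and 0.91 in PAT3. Counts limit Btnl2 most, and the spread between mice exceeds counting error for all 5 genes.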
